A study of Mus musculus with 48 samples.

Results

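*Acat1*, *Bdh1*, *Bdh2* and *Slc16a1*, 4 genes of ketone body synthesis, interconversion and transport, were followed in the livers of 48 male mice. They were chosen by gene name: every probe that the scanner files assign to these names was taken, which gave 5 probes for 4 of the 37074 gene names on the array. *WT* mice were compared with *Pparα* -/- mice, which lack the receptor in all cells, and with *Pparα* hep-/- mice, in which a Cre recombinase driven by the albumin promoter deletes it in hepatocytes. Each genotype received a CTRL diet or a high fat diet (HFD) with 60% fat, and each of the 6 groups held 8 mice with 1 Agilent array each. Per the labels all mice were C57Bl6J and 20 weeks old after 12 weeks of diet, although the study's text gives a shorter diet for the same final age. All were housed at thermoneutrality. The HFD response asks how the genes follow a fatty diet, and the genotype comparisons ask whether they differ without PPARα, a nuclear receptor that senses fatty acids. The study's text says that *WT* mice came from Charles River, whereas both deletion lines were bred at INRA. In differences from *WT*, the deletion and the origin of the mice therefore cannot be told apart.

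Ketone bodies are made in liver mitochondria from acetyl-CoA, the product of fatty acid oxidation, and are exported as fuel for other organs. The thiolase ACAT1 joins acetyl-CoA units to acetoacetyl-CoA, from which acetoacetate is made, and BDH1 reduces acetoacetate to β-hydroxybutyrate. BDH2 is a cytosolic enzyme also named for β-hydroxybutyrate, and SLC16A1 (MCT1) carries lactate, pyruvate and ketone bodies across the cell membrane. Hepatocytes make ketone bodies but use few of them, since they hold little of OXCT1, the transferase that other tissues need to burn them. PPARα is known to drive this pathway in fasting, whereas the present mice were killed in the fed state.

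The probes read the transcripts at these places of mm9, the build in the files. The *Acat1* probe A_51_P319449 lay on chromosome 9 from 53389868 to 53389927. The brighter *Bdh1* probe, A_51_P163106, lay on chromosome 16 from 31457378 to 31457437, next to the dimmer A_55_P2181753 from 31457249 to 31457308. The *Bdh2* probe A_55_P2119969 lay on chromosome 3 from 134967309 to 134967368, and the *Slc16a1* probe A_51_P397367 on the same chromosome from 104460941 to 104461000. All 5 probes were well above background on 48 of 48 arrays and all 5 entered the tests, so no member was lost to the filter on dim probes. The probe positions were not set against exons here, and no level was compared between genes, because probes differ in brightness.

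Since the deleted gene encodes a receptor that binds DNA, the sequences before the starts of the genes are shown for *Bdh1*, *Bdh2* and *Slc16a1*, from RefSeq on GRCm38.p6. Each line gives the 250 bases before a start on the + strand, 5′ to 3′, and capitals mark the only motif found, TATAA. The *Bdh1* windows were chr16:31422047-31422296 (first line) and chr16:31428503-31428752 (second line), that of *Bdh2* was chr3:135280971-135281220 and that of *Slc16a1* chr3:104638414-104638663.
Bdh1, first start: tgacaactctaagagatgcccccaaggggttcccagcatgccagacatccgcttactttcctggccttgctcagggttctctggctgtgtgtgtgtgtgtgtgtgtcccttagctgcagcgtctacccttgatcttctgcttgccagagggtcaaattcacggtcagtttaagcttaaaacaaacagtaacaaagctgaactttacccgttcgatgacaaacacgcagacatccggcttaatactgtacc
Bdh1, second start: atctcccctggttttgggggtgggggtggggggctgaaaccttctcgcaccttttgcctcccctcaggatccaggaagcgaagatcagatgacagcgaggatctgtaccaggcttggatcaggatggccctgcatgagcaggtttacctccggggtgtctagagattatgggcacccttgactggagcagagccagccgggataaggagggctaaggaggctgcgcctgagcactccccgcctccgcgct
Bdh2: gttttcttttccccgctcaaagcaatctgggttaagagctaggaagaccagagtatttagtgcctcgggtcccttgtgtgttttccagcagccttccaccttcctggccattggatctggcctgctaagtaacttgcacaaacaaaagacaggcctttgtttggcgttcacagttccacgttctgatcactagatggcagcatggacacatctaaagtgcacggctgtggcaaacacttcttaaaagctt
Slc16a1: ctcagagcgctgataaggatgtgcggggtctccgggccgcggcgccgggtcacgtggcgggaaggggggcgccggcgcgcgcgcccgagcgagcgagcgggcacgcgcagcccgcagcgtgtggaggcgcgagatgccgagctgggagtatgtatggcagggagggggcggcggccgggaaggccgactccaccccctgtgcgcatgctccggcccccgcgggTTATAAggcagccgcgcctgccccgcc

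Both strands of these windows were searched for AGGTCA, a half-site of nuclear receptors, for DR1, the pair of AGGNCA half-sites with 1 base between them that PPARα binds, and for TATAA. None of the 4 windows held AGGTCA, which 14% of the 32851 RefSeq promoter windows of this length held, and none held DR1, which 0.338% held. TATAA was found before *Slc16a1* alone, on the + strand 26 to 22 bases before the start and, overlapping it, on the - strand, and 22.8% of all windows held it. The *Slc16a1* window was also rich in G and C, with 76.4% of its bases against 48% for *Bdh2* and 49.6% and 60.8% for the *Bdh1* starts. A match or its absence says only which letters stand in these windows.

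The arrays were of like brightness, with a median intensity of 56 to 91 per array against a local background of 20 to 36, 28234 to 38217 spots well above background and 0 saturated spots. Levels below are log2 signals after quantile normalization, and fitted differences come from limma with a wash batch term and array weights, so they can depart from the difference of the group means. Array weights ran from 0.189 to 2.53, and 4 arrays lay under 0.4: *WT* CTRL mouse 6, *WT* HFD mice 2 and 6 and *Pparα* hep-/- CTRL mouse 1. Without these 4 arrays, an alternative added after the data had been seen, the 48 member differences tested all kept their direction and their side of the threshold. Hepatocyte markers (*Alb*, *Apoa1*, *Ttr*, *Cps1*, *Tat* and *Serpina1c*) were bright in every group, with a mean log2 signal of 16.46 to 17.10 per mouse. RNA of the targeted gene *Ppara* was detected in all groups, and since its probes were not set against the deleted exon they check the labels only in part. Its brighter probe differed on the HFD from *WT* by -0.85 (*Pparα* hep-/-) and -1.08 (*Pparα* -/-), with adjusted p = 5.12e-10 and 2.77e-14 from limma, and on CTRL by -0.42 and -0.65 (adjusted p = 0.000887 and 1.1e-06). Its dimmer probe differed by -0.68 and -1.29 on the HFD and by -1.11 in *Pparα* -/- mice on CTRL, but by -0.10 in *Pparα* hep-/- mice on CTRL, which did not pass (adjusted p = 0.454 from limma).

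*Acat1* and *Bdh1* rose on the HFD in all 3 genotypes, *Bdh2* fell in *Pparα* -/- mice, and no change of *Slc16a1* passed the test. *Acat1* rose 1.76-fold in *WT*, 1.47-fold in *Pparα* hep-/- and 1.55-fold in *Pparα* -/- mice. *Bdh1* rose 1.49-fold, 1.58-fold and 1.73-fold in the same order. Called members thus numbered 2 of 4 in *WT*, 2 of 4 in *Pparα* hep-/- and 3 of 4 in *Pparα* -/- mice, against 18.7%, 20.2% and 24.8% of all 33323 probes tested. Probes higher on the HFD in all 3 genotypes made up 1.14% of those tested.

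**Figure D1:**
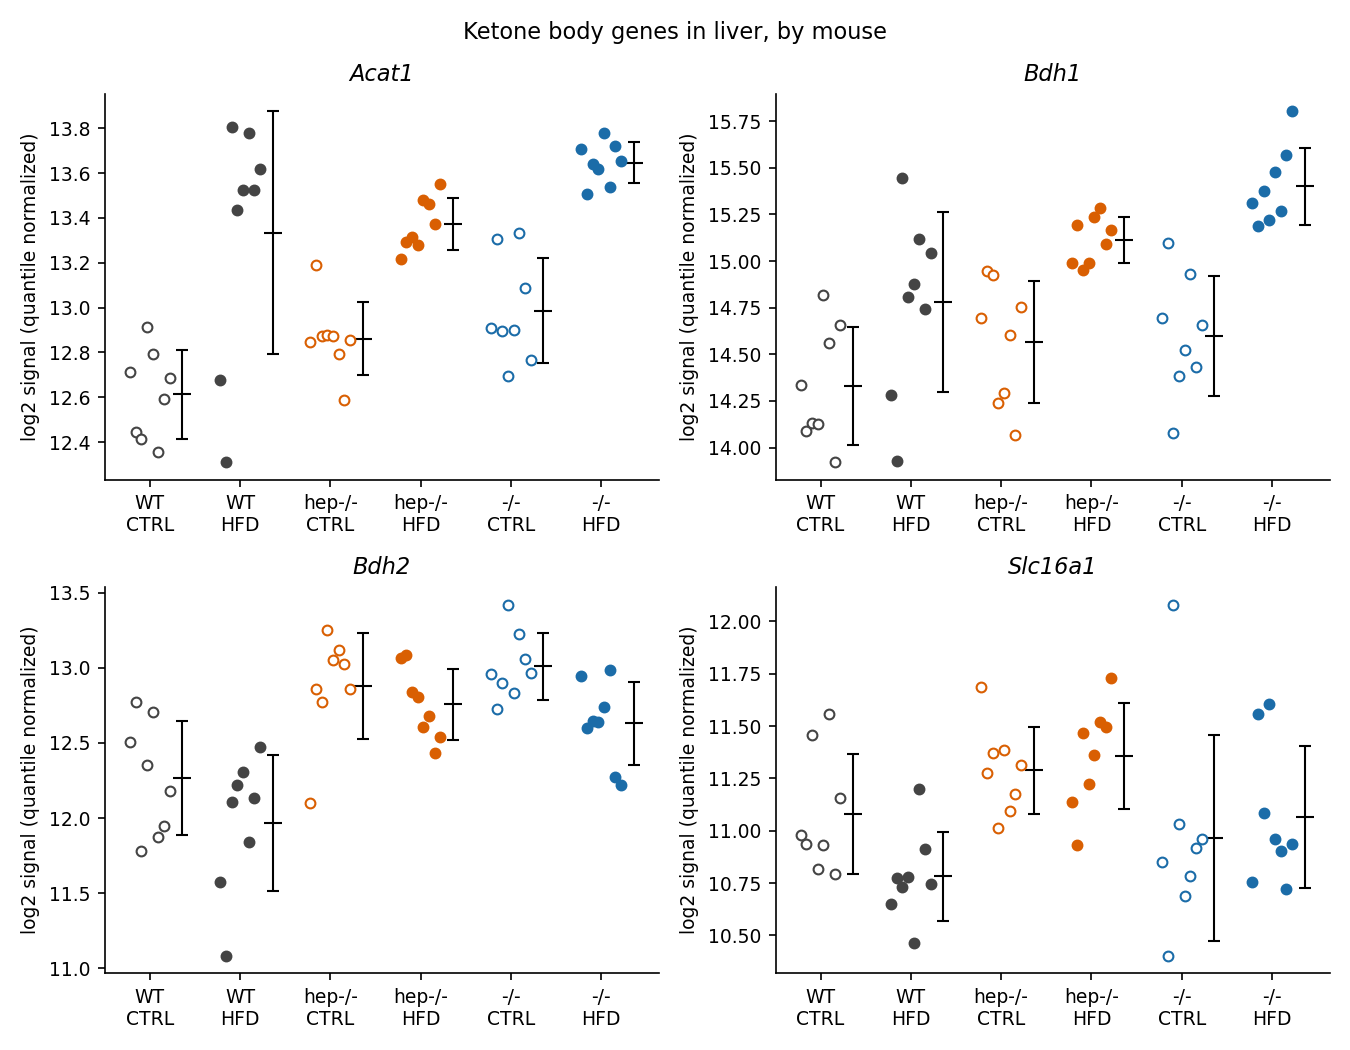
Log2 signal (y axis, quantile normalized, a scale of its own for each gene) of the brightest probe of the 4 genes in each of the 8 mice of 6 groups (x axis), with open points for CTRL, filled points for HFD, and the mean and SD in black. In *Acat1* and *Bdh1* the HFD mice of both deletions lie above their CTRL mice without overlap, while in *WT* 6 of 8 HFD mice for *Acat1* and 4 of 8 for *Bdh1* lie above every CTRL mouse.

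*Acat1* encodes the mitochondrial thiolase at the entry to ketogenesis, which also closes isoleucine degradation. Its log2 signal ran from 12.35 to 12.92 (median 12.64) in *WT* CTRL mice and from 12.31 to 13.80 (median 13.53) in *WT* HFD mice. In *Pparα* hep-/- mice it ran from 12.59 to 13.19 (median 12.86) on CTRL and from 13.22 to 13.55 (median 13.35) on the HFD. Of the *WT* HFD mice 6 lay above every *WT* CTRL mouse, whereas mouse 1, at 12.68, and mouse 2, at 12.31, lay within or below the CTRL range.

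In *Pparα* -/- mice the *Acat1* signal ran from 12.69 to 13.33 (median 12.90) on CTRL and from 13.51 to 13.78 (median 13.65) on the HFD, so that in both deletions the diets did not overlap. Such separation was found for 0.591% of probes with the hepatocyte deletion and 1.44% with the whole-body deletion. The HFD difference of *Acat1* was 0.82 in *WT* (standard error 0.11, adjusted p = 1.29e-06 from limma, 7 of 8 mice above the CTRL mean), 0.56 in *Pparα* hep-/- (standard error 0.09, adjusted p = 3.93e-05) and 0.63 in *Pparα* -/- mice (SE 0.10, adjusted p = 1.01e-05). These 3 calls held under every alternative that was run.

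*Bdh1* encodes the mitochondrial dehydrogenase that interconverts acetoacetate and β-hydroxybutyrate. Its brighter probe ran from 13.92 to 14.82 (median 14.23) in *WT* CTRL and from 13.93 to 15.45 (median 14.84) in *WT* HFD mice. *WT* HFD mouse 1, at 14.28, and mouse 2, at 13.93, again lay low, and only 4 of the 8 were above every CTRL mouse. In *Pparα* hep-/- mice the signal ran from 14.07 to 14.95 (median 14.65) on CTRL and from 14.95 to 15.28 (median 15.13) on the HFD.

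In *Pparα* -/- mice the *Bdh1* signal ran from 14.08 to 15.09 (median 14.59) on CTRL and from 15.19 to 15.80 (median 15.34) on the HFD. The HFD difference was 0.58 in *WT* (standard error 0.12, adjusted p = 0.000535 from limma), 0.66 in *Pparα* hep-/- (standard error 0.10, adjusted p = 1.18e-05) and 0.79 in *Pparα* -/- mice (SE 0.11, adjusted p = 1.16e-06). All 8 HFD mice lay above all CTRL mice in both deletions. The dimmer probe gave 0.61, 0.63 and 0.79, but its diets overlapped in *Pparα* hep-/- mice. Within the second wash batch alone the *WT* and *Pparα* hep-/- differences, 0.66 and 0.53, did not pass (adjusted p = 0.0779 and 0.0621 from limma).

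The low *WT* HFD mice shared more than these genes. The neutrophil markers *S100a8* and *S100a9* had a mean log2 signal of 12.13 in mouse 1 and 13.65 in mouse 2, against 7.45 to 9.22 in the other 6 *WT* HFD mice. Kupffer cell markers averaged 10.35 and 11.27 in mice 1 and 2, within or just above the 9.34 to 11.05 of the others. The part of these cells in the levels of *Acat1* and *Bdh1* was not tested, and in whole liver fewer cells of a type and less RNA per cell cannot be told apart. Without *WT* HFD mouse 2 and the other 3 arrays of low weight the *WT* HFD difference was 0.85 for *Acat1* and 0.61 for *Bdh1*.

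*Bdh2* encodes a cytosolic dehydrogenase that is also linked to an iron-binding siderophore of mammals. Its signal ran from 11.78 to 12.77 (median 12.27) in *WT* CTRL and from 11.09 to 12.47 (median 12.12) in *WT* HFD mice. It ran from 12.10 to 13.25 (median 12.95) and from 12.43 to 13.09 (median 12.74) in *Pparα* hep-/- mice, and from 12.73 to 13.42 (median 12.96) and from 12.22 to 12.98 (median 12.64) in *Pparα* -/- mice, on CTRL and HFD. The diets overlapped in each genotype, and the levels of the deletions lay mostly above those of *WT*. *WT* HFD mice 1 and 2, with high neutrophil markers, were the lowest of their group here too, at 11.58 and 11.09.

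On the HFD *Bdh2* fell by 0.48 in *Pparα* -/- mice (SE 0.13, adjusted p = 0.00755 from limma), where all 8 HFD mice lay below the CTRL mean. The differences of -0.26 in *Pparα* hep-/- mice (95% interval -0.52 to -0.00187) and of -0.18 in *WT* mice (-0.49 to 0.12) did not pass (adjusted p = 0.147 and 0.462 from limma). Without array weights the fall in *Pparα* -/- mice was -0.38 and no longer passed (adjusted p = 0.114 from limma), and within the first wash batch it was -0.42 (adjusted p = 0.187).

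*Slc16a1*, the proton-coupled monocarboxylate carrier, ran from 10.80 to 11.56 (median 10.96) in *WT* CTRL and from 10.47 to 11.20 (median 10.76) in *WT* HFD mice. In *Pparα* hep-/- mice it ran from 11.01 to 11.69 (median 11.30) on CTRL and from 10.93 to 11.73 (median 11.41) on the HFD. In *Pparα* -/- mice it ran from 10.40 to 12.08 (median 10.88) and from 10.72 to 11.61 (median 10.95). The diets overlapped in all genotypes, although 6 of 8 *WT* HFD mice lay below every *WT* CTRL mouse.

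The HFD difference of *Slc16a1* was -0.25 in *WT* (95% interval -0.51 to 0.02), 0.12 in *Pparα* hep-/- (-0.11 to 0.35) and 0.14 in *Pparα* -/- mice (-0.10 to 0.38), none of which passed (adjusted p = 0.21, 0.484 and 0.414 from limma).

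The HFD responses themselves were then compared between genotypes. For 0 of 4 genes did the response differ from *WT* in *Pparα* hep-/- or in *Pparα* -/- mice, or between the deletions by limma, against 10.4%, 14.3% and 3.42% of probes called. Before adjustment 1, 1 and 0 of 4 had a p under 0.05, in both cases *Slc16a1* (unadjusted p = 0.0421 and 0.0353 from limma). Its response exceeded that of *WT* by 0.37 in *Pparα* hep-/- mice (95% interval 0.01 to 0.72, adjusted p = 0.171 from limma) and by 0.39 in *Pparα* -/- mice (0.03 to 0.74, adjusted p = 0.136). The response of *Acat1* was smaller than in *WT* by -0.26 in *Pparα* hep-/- mice (95% interval -0.55 to 0.03, adjusted p = 0.242 from limma) and by -0.19 in *Pparα* -/- mice (-0.48 to 0.11, adjusted p = 0.417). For *Bdh1* the corresponding values were 0.08 (-0.24 to 0.40) and 0.21 (-0.11 to 0.53), and for *Bdh2* -0.08 (-0.48 to 0.32) and -0.29 (-0.70 to 0.11). The intervals are wide against the responses, so like responses are not shown by these tests.

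**Figure D2:**
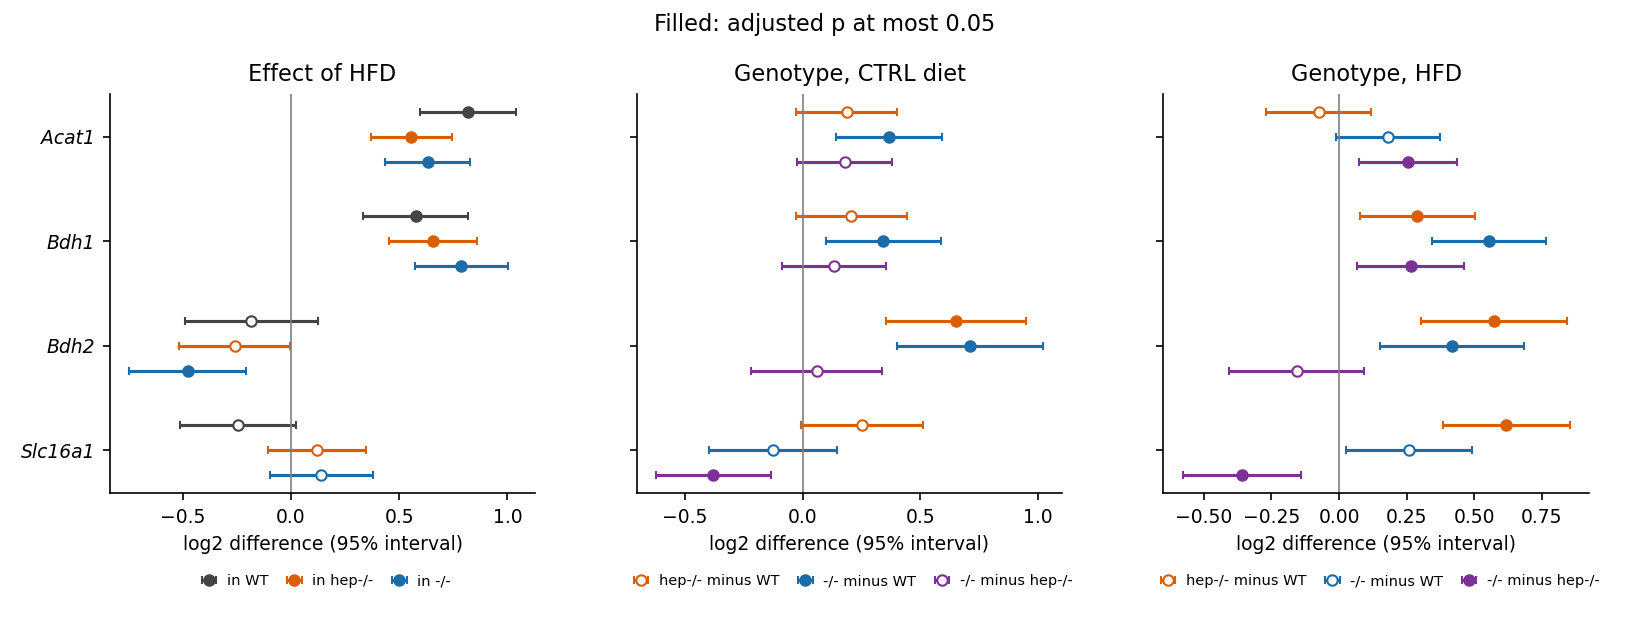
Fitted log2 differences (x axis) of the brightest probe of each gene with 95% intervals for the HFD against CTRL in each genotype, and for the genotypes on CTRL and on the HFD. Filled points have an adjusted p of at most 0.05, and the *Bdh2* points against *WT* lie right of 0 for both deletions on both diets.

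*Bdh2* was higher in both deletions than in *WT* on both diets. Compared with *WT* it was 1.57-fold higher in *Pparα* hep-/- and 1.64-fold higher in *Pparα* -/- mice on CTRL, and 1.49-fold and 1.33-fold higher on the HFD. On CTRL the differences were 0.65 (standard error 0.15, adjusted p = 0.000841 from limma, 7 of 8 mice above the *WT* mean) and 0.71 (standard error 0.15, adjusted p = 0.000262, 8 of 8 above). On the HFD they were 0.57 (standard error 0.13, adjusted p = 0.00115) and 0.42 (standard error 0.13, adjusted p = 0.00864), again with 8 of 8 above in each deletion. Probes higher in both deletions on both diets made up 2.17% of those tested.

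*Bdh2* did not differ by the test between the deletions, with 0.06 on CTRL (95% interval -0.22 to 0.34) and -0.16 on the HFD (-0.41 to 0.09). Both CTRL calls held under every alternative that was run. The HFD call of *Pparα* -/- mice was 0.27 with Agilent's processed signal (adjusted p = 0.107 from limma) and 0.13 within the second wash batch (adjusted p = 0.542), where that of *Pparα* hep-/- mice, at 0.44, did not pass either (adjusted p = 0.0977). Without the 4 arrays of low weight, *WT* HFD mouse 2 among them, the HFD differences were 0.49 and 0.34 and passed (adjusted p = 0.00296 and 0.0253 from limma). The lowest *Pparα* hep-/- CTRL mouse, mouse 1 at 12.10, had the lowest array weight, 0.189, and the highest mean of cholangiocyte markers, 8.88 against 6.25 to 6.93 in the other 7.

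On CTRL, called members numbered 1 of 4 in *Pparα* hep-/- against *WT*, 3 of 4 in *Pparα* -/- against *WT* and 1 of 4 between the deletions, against 24.7%, 34.2% and 25.2% of probes. *Acat1* was 0.37 above *WT* in *Pparα* -/- mice (1.29-fold, standard error 0.11, adjusted p = 0.00869 from limma, 8 of 8 mice above the *WT* mean). *Bdh1* was 0.34 higher there (1.27-fold, standard error 0.12, adjusted p = 0.0249), and its dimmer probe 0.41 higher (adjusted p = 0.0118). In *Pparα* hep-/- mice the CTRL differences from *WT*, 0.19 for *Acat1* (95% interval -0.03 to 0.40) and 0.21 for *Bdh1* (-0.03 to 0.44), did not pass. The *Bdh1* call is near the threshold and did not pass without array weights, at 0.27 (adjusted p = 0.13 from limma). The *Acat1* call held in 12 of 13 alternatives and was lost within the first wash batch.

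On the HFD, called members numbered 3 of 4 in *Pparα* hep-/- against *WT*, 2 of 4 in *Pparα* -/- against *WT* and 3 of 4 between the deletions, against 26.7%, 45.7% and 30.6% of probes. *Bdh1* was 0.29 higher in *Pparα* hep-/- (1.22-fold, standard error 0.11, adjusted p = 0.0362 from limma) and 0.55 higher in *Pparα* -/- mice than in *WT* (1.47-fold, standard error 0.10, adjusted p = 2.48e-05). It was 0.26 higher in *Pparα* -/- than in *Pparα* hep-/- mice (adjusted p = 0.0354), and all 8 mice lay above the mean of the other group in each of these comparisons. The *WT* mean was lowered by *WT* HFD mice 1 and 2, at 14.28 and 13.93. Only 0 of 8 *Pparα* hep-/- and 3 of 8 *Pparα* -/- mice lay above all *WT* mice. The *Pparα* -/- call against *WT* held under every alternative, whereas the other 2 held in 41 and 42 of the 48 fits that each left out 1 mouse, and neither passed without array weights, at 0.37 and 0.25 (adjusted p = 0.075 and 0.218 from limma). Without *WT* HFD mouse 1 or mouse 2, the *Pparα* hep-/- difference from *WT* was 0.23 or 0.25 (adjusted p = 0.0846 and 0.064 from limma). With the processed signal this difference was 0.16 and did not pass either.

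For *Acat1* on the HFD, *Pparα* hep-/- mice differed from *WT* by -0.08 (95% interval -0.27 to 0.12) and *Pparα* -/- mice by 0.18 (-0.01 to 0.37), neither of which passed. *Acat1* was 0.26 higher in *Pparα* -/- than in *Pparα* hep-/- mice (SE 0.09, adjusted p = 0.0264 from limma, 8 of 8 above), and 6 of the 8 lay above all *Pparα* hep-/- mice. This call was lost, at 0.24 to 0.27, without array weights, without the filter on dim probes, with the replicate numbers as a block and within each wash batch (adjusted p from 0.0514 to 0.24 from limma).

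*Slc16a1* was the only member called between the deletions on both diets, although these calls did not hold under every alternative. On the HFD *Pparα* hep-/- mice had 1.53-fold more of it than *WT* mice, a difference of 0.62 (standard error 0.12, adjusted p = 9.71e-05 from limma), and 6 of the 8 lay above all *WT* mice. In *Pparα* -/- mice the difference from *WT* was 0.26 (95% interval 0.03 to 0.49, adjusted p = 0.0631 from limma). Between the deletions, *Pparα* -/- mice were lower by -0.38 on CTRL (standard error 0.12, adjusted p = 0.0166) and by -0.36 on the HFD (standard error 0.11, adjusted p = 0.00948). Within the first wash batch these differences were -0.10 and -0.11 and did not pass (adjusted p = 0.869 and 0.741 from limma), nor did that of *Pparα* hep-/- from *WT* mice, at 0.52 (adjusted p = 0.099). Without array weights the differences between the deletions were -0.36 and -0.26 and did not pass (adjusted p = 0.0686 and 0.217 from limma). *Pparα* -/- CTRL mouse 3, at 12.08, stood above the other 7, which reached 11.03 at most, and had an array weight of 0.419.

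Some markers of other cell types were also called between the groups. On the HFD against CTRL, 18.7%, 20.2% and 24.8% of all probes were called in *WT*, *Pparα* hep-/- and *Pparα* -/- mice. For *Pparα* hep-/- against *WT*, *Pparα* -/- against *WT* and between the deletions they were 24.7%, 34.2% and 25.2% on CTRL. The same comparisons on the HFD gave 26.7%, 45.7% and 30.6%. Several of the smaller marker counts lie near these shares. On the HFD, all 4 of 4 stellate cell markers (*Lrat*, *Reln*, *Dcn* and *Col1a1*) were higher than in *WT* in each deletion, with a mean log2 signal of 11.41 to 12.08 in *Pparα* hep-/- and 11.12 to 12.20 in *Pparα* -/- mice, against 9.75 to 12.67 in *WT*. Kupffer cell markers were higher for 3 of 5 in *Pparα* hep-/- and 5 of 5 in *Pparα* -/- mice, with ranges of 10.07 to 11.48 and 11.12 to 11.88 against 9.34 to 11.27 in *WT*.

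On the HFD against CTRL, 4 of 5 Kupffer and 4 of 4 stellate markers rose in *Pparα* -/- mice, 1 of 5 and 2 of 4 in *Pparα* hep-/- mice and 0 in *WT*, beside a rise of *Acat1* and *Bdh1* in all 3 genotypes. Neutrophil markers rose for 2 of 2 in *Pparα* -/- mice and endothelial markers for 1 of 3 there and 2 of 3 in *Pparα* hep-/- mice, and 0 of either list in *WT*. The hepatocyte marker *Cps1*, of the urea cycle, fell in all 3 genotypes, by -0.88, -0.53 and -0.71, and *Tat* fell by -0.60 and *Apoa1* rose by 0.23 in *Pparα* -/- mice. There *Cd3e* (-0.26), *Alas2* of red blood cells (-0.54) and *Cela1* of the pancreas (-0.67) also fell, beside *Bdh2*, and the cholangiocyte marker *Sox9* rose by 0.54 in *Pparα* hep-/- mice.

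In *Pparα* hep-/- against *WT* mice on the HFD, where *Slc16a1* was called, 2 of 3 endothelial, 1 of 2 neutrophil and 1 of 4 cholangiocyte markers (*Sox9*, 0.47) were also higher. The lymphocyte marker *Cd3e* (-0.30) and 1 of 6 hepatocyte markers (*Apoa1*, -0.17) were lower there, and 0 of 3 red blood cell markers were called by limma. Of the same lists, 2 of 2 neutrophil markers and 2 of 3 endothelial markers were higher and 1 of 3 endothelial markers lower in *Pparα* -/- than in *WT* mice on the HFD, while 0 of 4 cholangiocyte and 0 of 3 red blood cell markers were called. The neutrophil means ran from 9.65 to 11.16 in these *Pparα* -/- mice and from 7.45 to 13.65 in these *WT* mice. *WT* HFD mice 1 and 2, with array weights of 0.54 and 0.34, lay above all these *Pparα* -/- mice. For lymphocytes, adipocytes and pancreas 1 gene each was tested, of which *Cela1* of the pancreas was lower by -0.79 in that comparison. Of the 6 hepatocyte markers 0 were higher and 2 lower in *Pparα* -/- than in *WT* mice on the HFD. On CTRL, beside the genotype differences of *Bdh2*, *Acat1* and *Bdh1*, 2 of 5 Kupffer and 1 of 4 stellate markers were higher and 2 of 6 hepatocyte markers lower than in *WT* in each deletion, *Apoa1* by -0.25 and -0.51 and *Cps1* by -0.56 and -0.62. The endothelial marker *Stab2* was higher by 0.39 and 1.05. In *Pparα* -/- mice *Clec4g* of the endothelium (-0.40) and *Krt7* of cholangiocytes (-0.62) were lower and *Alas2* (0.88) and *Cd3e* (0.19) higher.

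Between the deletions on CTRL, beside the lower *Slc16a1* of *Pparα* -/- mice, 1 of 4 stellate (*Lrat*, -0.61), 1 of 6 hepatocyte and 1 of 3 endothelial markers were lower, and 1 of 3 endothelial, 1 of 3 red blood cell and the lymphocyte marker higher. On the HFD, beside the lower *Slc16a1* and the higher *Acat1* and *Bdh1*, 2 of 4 cholangiocyte markers (*Krt7*, -0.47, and *Sox9*, -0.63) and 1 of 3 endothelial markers were lower. There 2 of 5 Kupffer markers (*Timd4*, 1.47, and *Adgre1*, 0.76), 1 of 4 stellate (*Reln*, 0.52), 1 of 3 endothelial, 1 of 2 neutrophil and the lymphocyte marker were higher. The part of these cells in the member levels was not tested.

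The order of the group means differed between the genes. For *Acat1* it ran from *Pparα* -/- HFD (13.65 ± 0.09, SD, n = 8) over *Pparα* hep-/- HFD (13.37 ± 0.12) and *WT* HFD (13.33 ± 0.54) to *Pparα* -/- CTRL (12.99 ± 0.24), *Pparα* hep-/- CTRL (12.86 ± 0.16) and *WT* CTRL (12.61 ± 0.20). For *Bdh1* the order was the same, from 15.40 ± 0.21 to 14.33 ± 0.32. By the medians of *Acat1*, *WT* HFD mice (13.53) lay above *Pparα* hep-/- HFD mice (13.35). The fitted *Acat1* difference of *Pparα* hep-/- from *WT* mice on the HFD was likewise below 0, at -0.08. *Pparα* hep-/- HFD and *WT* HFD mice were neighbours that did not differ by the test in *Acat1* but did in *Bdh1*, *Pparα* -/- HFD mice differed from *Pparα* hep-/- HFD mice in both genes, and neighbours on CTRL did not differ in either. The neighbours *WT* HFD and *Pparα* -/- CTRL differ in both factors and were not tested.

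For *Bdh2* the order was *Pparα* -/- CTRL (13.01 ± 0.22), *Pparα* hep-/- CTRL (12.88 ± 0.35), *Pparα* hep-/- HFD (12.76 ± 0.24), *Pparα* -/- HFD (12.63 ± 0.28), *WT* CTRL (12.27 ± 0.38) and *WT* HFD (11.97 ± 0.45). The first 4 were the deletions, and none of the neighbours of this order that share a diet or a genotype differed by the test. For *Slc16a1*, *Pparα* hep-/- HFD (11.36 ± 0.25) and CTRL (11.29 ± 0.21) mice came first and *WT* HFD mice (10.78 ± 0.21) last, with *WT* CTRL (11.08 ± 0.29), *Pparα* -/- HFD (11.07 ± 0.34) and *Pparα* -/- CTRL (10.96 ± 0.49) between them. None of its neighbours that share a diet or a genotype differed by the test. The SD of *WT* HFD mice in *Acat1* was the widest of its 6 groups.

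The members also varied among mice of a group, with a residual SD of 0.26 for *Acat1*, 0.28 for *Bdh1*, 0.33 for *Bdh2* and 0.29 for *Slc16a1* against a median of 0.20 over all probes. *Acat1* and *Bdh1* deviated together over the 48 mice after group and wash batch means were removed, with Pearson's r = 0.70 and Spearman's rho = 0.56 (adjusted p = 0.00144 and 0.00186 over 6 pairs, permutation tests). Without the 2 mice farthest in *Acat1*, *WT* HFD mice 1 and 2, r was 0.52. The first wash batch alone gave 0.69 and the second 0.72.

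**Figure D3:**
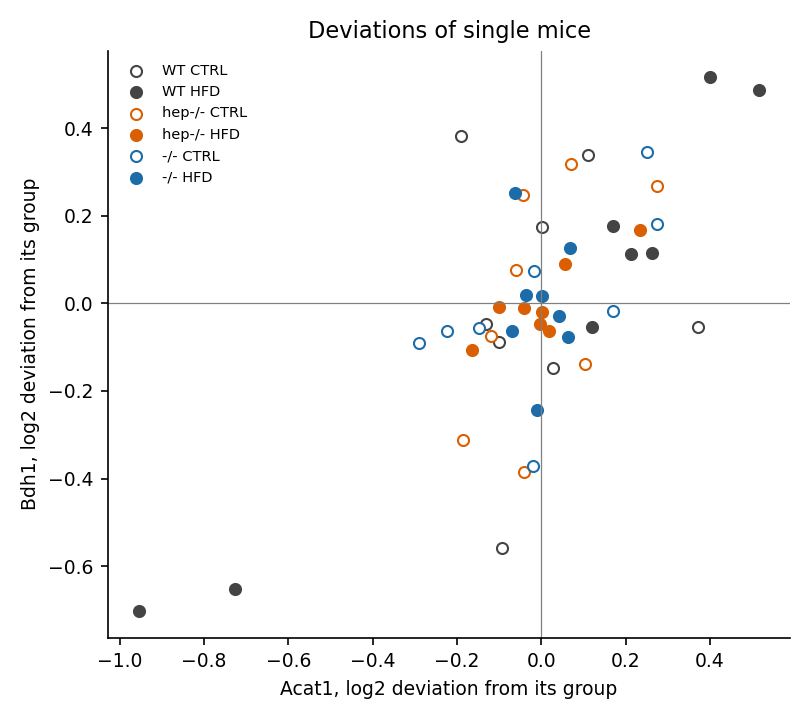
Log2 deviation of *Bdh1* (y axis) against that of *Acat1* (x axis) from the mean of the group and wash batch, with 1 point for each of the 48 mice, open for CTRL and filled for HFD. *WT* HFD mice 1 and 2 form the lower left end, at -0.73 and -0.95 for *Acat1* and -0.65 and -0.70 for *Bdh1*, and r falls from 0.70 to 0.52 without them.

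*Bdh2* and *Slc16a1* deviated in opposite directions by rank, with rho = -0.39 (adjusted p = 0.0232, permutation test), but r = -0.29 did not pass (adjusted p = 0.107), was -0.33 without the 2 mice farthest in *Bdh2*, and was -0.41 within the first and 0.00407 within the second wash batch. Rank correlations were not computed within a batch, and the difference between the batches was not tested. The other 4 pairs had r between 0.03 and 0.35 and did not pass. The deviations of the members correlated with the number of spots well above background on the array at r between -0.22 and 0.25, given as a description.

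The genes whose signal over the 48 arrays, after removal of wash batch means, was most like that of each member were named by Pearson's r, as a description of arrays that share groups and diets. For *Acat1*, genes near the top were *Hadh* (r = 0.90), a dehydrogenase of fatty acid oxidation, and *4931406C07Rik* (r = 0.89), which within groups had r = 0.75 and 0.88. *Bdh1* was followed by *Mpc1* (r = 0.94), a subunit of the mitochondrial pyruvate carrier, *Gpc1* (r = 0.92), a cell surface proteoglycan, and the unannotated NAP114348-1 (r = 0.91). For *Bdh2* these were *Gm11128* (r = 0.85), *Lrtm1* (r = 0.83) and BQ563014 (r = 0.82), and for *Slc16a1* *Chka* (r = 0.79), a choline kinase, *Dtx4* (r = 0.78) and *Mboat1* (r = 0.78), an acyltransferase.

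Around the members, 38 further genes of ketone body enzymes, monocarboxylate transport, ketone body receptors, isoleucine degradation and fatty acid oxidation were listed, of which 32 were tested. On the HFD 19 rose and 0 fell in *WT*, 15 rose and 2 fell in *Pparα* hep-/-, and 18 rose and 2 fell in *Pparα* -/- mice, beside 18.7%, 20.2% and 24.8% of all probes called in either direction. Against *WT* on CTRL, 5 were higher and 9 lower in *Pparα* hep-/- and 7 higher and 11 lower in *Pparα* -/- mice, beside 24.7% and 34.2% of probes. On the HFD these counts were 6 and 12 and 10 and 14, beside 26.7% and 45.7% of probes.

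Among the other ketone body enzymes reported here, of which 3 of 7 were tested, 1, 0 and 0 rose and 0 fell on the HFD, and the differences had a median of -0.10, 0.10 and 0.05 in *WT*, *Pparα* hep-/- and *Pparα* -/- mice, against medians of all probes between -0.02 and -0.01. *Acat3*, whose probe also carries the accession of *Acat2* so that the 2 cannot be told apart, rose by 0.40 in *WT* mice alone among the calls (adjusted p = 0.00188 from limma), and its response differed from *WT* by -0.35 in *Pparα* -/- mice, which did not pass (adjusted p = 0.0554). A dimmer *Acat3* probe gave -0.31, which did (adjusted p = 0.0348 from limma). *Oxct1*, the transferase of ketone body use, exceeded *WT* on the HFD by 0.66 with the hepatocyte and 0.88 with the whole-body deletion (adjusted p = 0.00145 and 8.13e-06). *Aacs*, which activates acetoacetate in the cytosol, was lower by -0.84 in *Pparα* -/- mice on the HFD (adjusted p = 0.0409).

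Among the carriers related to *Slc16a1* and their partners, 8 of 10 genes were tested, and 3, 5 and 5 rose and 0, 1 and 1 fell on the HFD in *WT*, *Pparα* hep-/- and *Pparα* -/- mice, with medians of 0.23, 0.44 and 0.37. *Slc16a7* (MCT2) rose by 0.66, 0.68 and 1.09 by its brightest probe. A_51_P466633 gave 0.61, 0.61 and 0.99, and A_55_P2394490 gave 0.24, 0.61 and 0.58, of which the *WT* value did not pass (adjusted p = 0.31 from limma). Of its dim probes, A_52_P408736 gave 0.29, 0.31 and 0.46, whereas A_55_P2173358 gave 0.22, 0.02 and -0.05, none of which passed. On the HFD A_55_P2173358 was lower than *WT* by -0.52 in *Pparα* -/- mice, where the brightest probe was higher by 0.66. *Bsg* (basigin), the chaperone that brings MCT1 to the membrane, rose by 0.32, 0.41 and 0.24. *Slc16a3* (MCT4) exceeded *WT* on the HFD by 0.59 with the hepatocyte and 1.15 with the whole-body deletion (adjusted p = 0.013 and 1.11e-06 from limma).

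The carriers *Slc16a11* and *Slc16a13* were lower in the deletions, whereas the call of *Slc16a1* against *WT*, in *Pparα* hep-/- mice on the HFD, was higher. On the HFD *Slc16a11* was lower than in *WT* by -3.02 and -3.36 in the hepatocyte and the whole-body deletion, and *Slc16a13* by -1.40 and -1.28 (adjusted p = 1.08e-17, 1.07e-20, 5.38e-15 and 7.27e-15 from limma). *Slc16a11* also had a response to the HFD that differed from *WT* by -2.14 and -1.15 (adjusted p = 1.59e-06 and 0.00296). Of the receptors, *Hcar2*, which senses β-hydroxybutyrate, was 1.09 higher in *Pparα* hep-/- and 0.74 higher in *Pparα* -/- mice than in *WT* on the HFD (adjusted p = 0.00109 and 0.0139). Its response to the HFD differed from *WT* by 1.25 in *Pparα* -/- mice (adjusted p = 0.023 from limma). The *Hcar2* probe was dim, with a mean log2 signal of 6.72. *Ffar3* was called in no comparison (differences between -0.28 and 0.14).

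**Figure D4:**
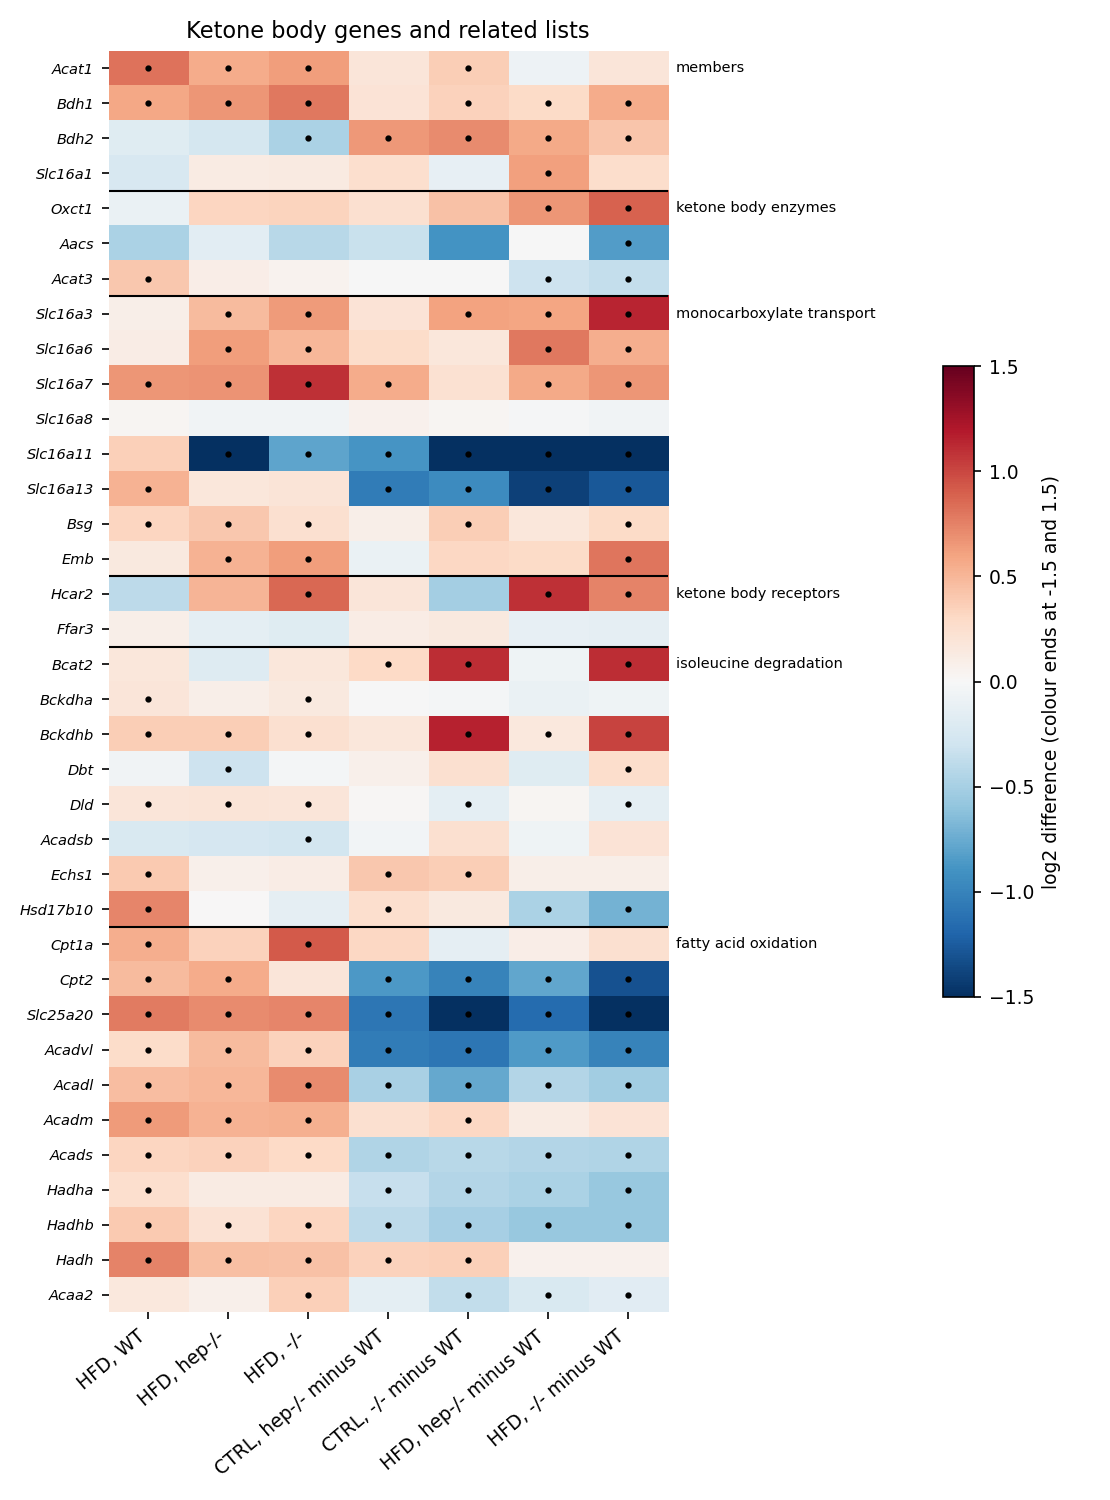
Fitted log2 differences (colour, ending at -1.5 and 1.5) of the 4 members and the 32 tested genes of 5 lists (rows) in 7 comparisons (columns), with a dot where the adjusted p is at most 0.05. The first 3 columns, the HFD responses, are mostly red, and in the last 4 columns the members are mostly red while most genes of fatty acid oxidation are blue.

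In fatty acid oxidation, which supplies acetyl-CoA to *Acat1*, 10, 8 and 9 of 11 genes rose on the HFD in *WT*, *Pparα* hep-/- and *Pparα* -/- mice and 0 fell, with medians of 0.46, 0.46 and 0.36. Against *WT*, 7 and 8 of 11 were lower on CTRL and 8 and 8 of 11 on the HFD in *Pparα* hep-/- and *Pparα* -/- mice. *Slc25a20*, the carnitine carrier of the inner mitochondrial membrane, rose by 0.78, 0.71 and 0.73 on the HFD and was lower by -1.08 and -1.83 in the deletions on CTRL. *Hadh*, by contrast, rose by 0.74, 0.46 and 0.44 on the HFD and was higher by 0.35 and 0.36 in the deletions on CTRL.

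In isoleucine degradation, which *Acat1* closes, 5, 2 and 3 of 8 genes rose and 0, 1 and 1 fell on the HFD in the 3 genotypes, with medians of 0.18, 0.04 and 0.13. *Hsd17b10*, the dehydrogenase just before the thiolase, rose by 0.73 in *WT* mice (adjusted p = 1.79e-06 from limma), against 0.00363 in *Pparα* hep-/- and -0.13 in *Pparα* -/- mice. Its responses differed from *WT* by -0.73 and -0.86 (adjusted p = 0.000422 and 5.63e-05). *Bckdhb*, of the branched-chain keto acid dehydrogenase, exceeded *WT* by 1.02 in *Pparα* -/- mice on the HFD, whereas *Pparα* hep-/- mice differed by 0.16.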

How the data were processed

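Liver RNA of 48 mice was hybridised to 1-colour Agilent arrays, 1 per mouse. The authors deposited Feature Extraction 10.10.1.1 output, whose spot intensities were used as median pixel intensities without background subtraction. The authors' own log2 values (probe filter, wash correction and quantile normalization already applied) served as an alternative and correlated with the values used here at r = 0.999 over 32815 shared probes. Spots marked as outliers were left out, intensities of 59305 spots were taken to log2 and spots of a probe were averaged. A probe was kept where at least 4 of the 8 mice of some group had it well above background (33323 probes, 22029 gene names) and quantile normalized.

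limma 3.58.1 (R 4.3.3, data.table version 1.17.8) was fitted with 1 mean per group, a term for 2 wash batches and array weights, and p was adjusted within each contrast by the Benjamini-Hochberg method at 0.05. The 195 missing values were fitted by pattern, and none lay in a member. A gene stands for its brightest tested probe. The steps were tested on simulated data. Mice of a group are the units, and their number limits the precision. Permutation tests of pairs used 1e+05 draws. Named genes are the members, *Ppara*, up to 3 called genes per list and direction by size, and the 3 genes most like each member, with some other list genes added after their values were seen. Members and lists were chosen with earlier results of these data known, and some genes that these rules name are not reported here. Replicate numbers did not pair the mice.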

Additional observations from a re-analysis of the deposited data

Results flagged for a closer look

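Of 30 combinations of a member probe and a group of 8 mice, 2 held a mouse that stood apart by Dixon's criterion at the 95% level, which chance gives in about 1 of 20 groups. *Bdh2* in *Pparα* hep-/- CTRL mouse 1 was 12.10, against 12.77 in the next lowest mouse. This array had the lowest weight of the 48, and without it and 3 further arrays of low weight *Bdh2* stayed higher than in *WT* mice on CTRL, by 0.65. *Slc16a1* in *Pparα* -/- CTRL mouse 3 was 12.08, against 11.03 in the next highest mouse. No HFD response of a member differed between genotypes by the test.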

How the results depend on the processing

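None of the 20 called member differences changed sign under any alternative, and 7 kept their call under all of them. Among those not called, the sign changed under some alternative for *Acat1* in *Pparα* hep-/- against *WT* on the HFD (-0.21 to 0.05) and for differences in response of *Bdh1* (-0.13 to 0.28) and *Bdh2* (-0.19 to 0.19) between *Pparα* hep-/- and *WT* and of *Slc16a1* between the deletions (-0.05 to 0.12). The authors' log2 table, the dimmer *Bdh1* probe and the fit without 4 arrays changed no call. Without array weights the calls were lost for *Acat1* between the deletions on the HFD (0.26), *Bdh1* in *Pparα* -/- against *WT* on CTRL (0.27), in *Pparα* hep-/- against *WT* (0.37) and between the deletions on the HFD (0.25), *Bdh2* on the HFD in *Pparα* -/- mice (-0.38), and *Slc16a1* between the deletions on CTRL (-0.36) and HFD (-0.26). Without the wash batch term these 3 *Bdh1* calls were lost at 0.34, 0.24 and 0.32, without the filter on dim probes at 0.33, 0.32 and 0.26, with *Acat1* between the deletions at 0.26. With slide as a block *Bdh1* in *Pparα* hep-/- against *WT* on the HFD was lost at 0.30, and with the processed signal at 0.16, with *Bdh2* in *Pparα* -/- against *WT* on the HFD at 0.27. Normexp called *Slc16a1* in *Pparα* -/- against *WT* on the HFD, at 0.28. The cause of these changes was not tested.

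Replicate numbers did not pair the mice (mean correlation of same-numbered deviations 0.0143, range -0.45 to 0.69 over 120 pairs). The replicate block lost 1 call, *Acat1* between the deletions on the HFD (0.24), and changed no other member call.

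Within the first wash batch, with fewer mice, 9 calls were lost: *Acat1* in *Pparα* -/- against *WT* on CTRL (0.35) and between the deletions on the HFD (0.24), *Bdh1* in *Pparα* -/- against *WT* on CTRL (0.25), in *Pparα* hep-/- against *WT* (0.31) and between the deletions on the HFD (0.24), *Bdh2* on the HFD in *Pparα* -/- mice (-0.42), and *Slc16a1* between the deletions on CTRL (-0.10) and HFD (-0.11) and in *Pparα* hep-/- against *WT* on the HFD (0.52). Within the second, 8 were lost: *Acat1* between the deletions on the HFD (0.27), *Bdh1* on the HFD in *WT* (0.66) and *Pparα* hep-/- mice (0.53), the 3 *Bdh1* genotype calls (0.51, 0.23 and 0.33), and *Bdh2* in *Pparα* hep-/- (0.44) and *Pparα* -/- mice (0.13) against *WT* on the HFD.

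Leaving out 1 mouse, *Bdh1* in *Pparα* -/- against *WT* on CTRL (0.27 to 0.40) was lost without *WT* CTRL mouse 1 or 7 or *Pparα* -/- CTRL mouse 2 or 6. *Bdh1* in *Pparα* hep-/- against *WT* on the HFD (0.23 to 0.37, and 0.25 at the highest p) was lost without *WT* HFD mouse 1, 2, 5 or 7 or *Pparα* hep-/- HFD mouse 6, 7 or 8. *Bdh1* between the deletions on the HFD (0.23 to 0.29) was lost without *Pparα* hep-/- HFD mouse 3, 5 or 6 or *Pparα* -/- HFD mouse 3, 7 or 8. *Slc16a1* between them (-0.26 to -0.42) was lost without *Pparα* hep-/- HFD mouse 6 or *Pparα* -/- HFD mouse 7. In *Pparα* -/- against *WT* on the HFD, *Slc16a1* (0.20 to 0.33) was called without *WT* HFD mouse 6, *Pparα* -/- CTRL mouse 3 or *Pparα* -/- HFD mouse 1, 6 or 7, and *Acat1* (0.11 to 0.24) without *WT* HFD mouse 3.

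Of the 32 listed genes, 11 rather than 17 were called on the HFD in *Pparα* hep-/- mice without array weights and 7 rather than 12 between the deletions on the HFD. Called differences in response, 3 and 4 against *WT* and 1 between the deletions, came to 1, 2 and 0 without weights, 7 and 8 against *WT* with the processed signal, 2 and 0 in *Pparα* -/- against *WT* and between the deletions without the filter, and 2 between the deletions without the wash term, with slide, with normexp and in the authors' table. Over all probes, counts called ran from 1139 to 15241 in the 12 comparisons, from 110 without weights and from 21 to 8443 within the first wash batch.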
